A study of Arabidopsis thaliana with 6 samples.

Results

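Alternative 5′ splice site bins are stretches of exon that lie between 2 competing splice donors of the same intron, so that a transcript keeps the stretch when the donor nearer the intron (the longer donor) is used and loses it when the donor further into the exon (the shorter donor) is used. They were taken as every row of the deposited table of alternatively spliced bins whose event is annotated as Alt5'ss. This gave 1456 bins of 7973, in 1342 loci. Most of these loci, 1237, held 1 such bin, 105 loci held 2 or more, and no locus held more than 3. The bins were measured by RNA-seq in wild-type Arabidopsis thaliana seedlings of the Columbia ecotype, grown for 9 days under 12 h light and 12 h dark at 22 °C on agar medium. The light pulse group received 2 h of white light beginning in the middle of the night, at ZT18 (hours after lights on), and the dark control group stayed in darkness. Both were harvested at ZT20. Each group had 3 libraries (columns A, B and C), made from a pool of tissues. Light-grown whole seedlings mix roots, leaves and stems, so a change of splicing inside cells and a change in which cells contribute the RNA cannot be told apart in these bulk libraries.

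The 5′ splice site marks the last base of an exon. It is first bound by the U1 small nuclear ribonucleoprotein, then handed to U6, with SR proteins and other RNA-binding proteins helping to set which of several nearby donors is chosen. Within a coding region, a bin whose width is divisible by 3 adds or removes whole codons, whereas any other width shifts the reading frame and can expose the transcript to nonsense-mediated decay. In plants, light is known to alter splicing of many genes through phytochromes and through signals from the chloroplast.

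Total gene counts ranged between 8695843 and 12689543 reads per library. Ribosomal RNA genes took 4.40% of counts in light library A and 4.77% in dark library C, against 0.799% to 1.75% in the other libraries, so 1 library of each group stood apart. Libraries of the same group differed by more than counting noise (chi-square per degree of freedom of at least 2.61). The labels do not say whether the replicates were separate plantings, and the p-values below therefore reflect library-to-library spread alone, part of which may be technical. Between light and dark, 3 of 9 root marker genes were higher and 2 lower, and 1 of 7 leaf and stomatal marker genes was higher and 4 lower, where 56.3% of all genes tested were called. The summed level of the root markers was 233 to 237 CPM (counts scaled to a common library size) in light and 253 to 281 in dark. PHO1 was the largest single part of this sum, with a mean of 111 CPM in light and 148 in dark. PHO1 and SHR were the 2 lower root markers, and SCR, COBL9 and EXPA7 the 3 higher ones, so the sum does not speak for the root markers as a set. The leaf and stomatal markers summed to 234 to 252 CPM in light and 237 to 248 in dark, and no marker was at 0. Their part in the results below was not tested.

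The bins were mostly short. Widths ran from 2 to 2004 bases with a median of 19, and 614 of the 1456 bins were no wider than 12 bases. A width of 4 bases was by far the most frequent, with 265 bins; 3 bases (65 bins), 5 bases (57 bins) and 6 bases (56 bins) came next. A total of 621 bins had a width divisible by 3 and are called frame-keeping here, and 835 did not and are called frame-shifting. The deposited tables do not mark coding sequence, so the terms describe the width alone and some bins will lie in untranslated regions.

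The reads on junctions showed which annotated donors were in use. Both donors had junction reads in the 6 libraries together at 437 bins (30.01%). The longer donor alone was read at 354 bins (24.3%), the shorter donor alone at 504 (34.6%) and neither at 153, while the side of the intron stayed ambiguous for 8. Frame-shifting widths made up 322 of the 504 bins where the shorter donor alone was read (63.9%), and 155 of the 354 where the longer donor alone was read (43.8%). Among all 1456 bins, 835 were frame-shifting. Bins of 4 bases were 177 of the 322 and 5 of the 155, so most of the gap between these groups lies in that width. Bins with the shorter donor alone had a median width of 9 bases, against 18 bases where both donors were read and 27.5 bases where the longer donor alone was read. The 4-base bins stood out in this count as well: 177 of 265 had reads on the shorter donor alone, 63 on both and 5 on the longer donor alone. The 3-base bins divided otherwise, with 26 of 65 read on both donors, 20 on the longer alone and 15 on the shorter alone. Of the 437 bins with both donors, 395 had a single acceptor joined to both.

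**Figure D1:**
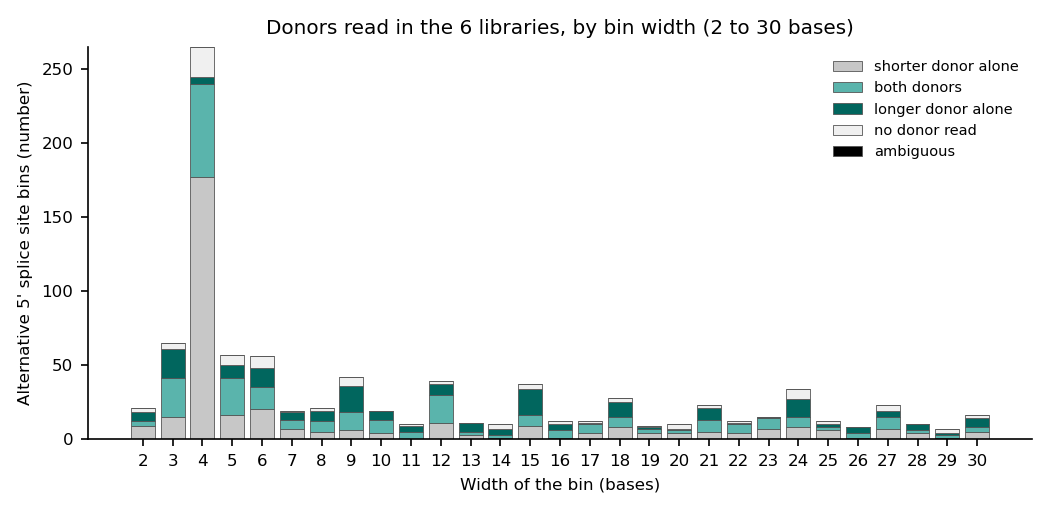
Number of alternative 5′ splice site bins at each width of 2 to 30 bases, stacked by which donors had junction reads in the 6 libraries together. The bar at 4 bases holds 265 bins, 177 of them with reads on the shorter donor alone, and multiples of 3 such as 9, 12, 15 and 24 bases stand above their neighbours.

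How much of a gene's output carried a bin was expressed as usage, the bin's read count in percent of the gene's read count in the same library. Usage is not corrected for width, and any read over the bin counts, from a transcript that uses the longer donor or from one that retains the intron. Among bins in genes with at least 50 counts in every library, frame-keeping bins had a median usage of 2.30% ± 0.136 in light and 2.23% ± 0.139 in dark (SD of the library medians, n = 3 each, 509 bins). Frame-shifting bins had a median of 0.642% ± 0.0965 in light and 0.629% ± 0.0678 in dark (697 bins). In both classes the light and dark medians differed by less than their SD. The gap between the frame classes depended on width. In light, frame-keeping and frame-shifting medians were 2.57% and 0.135% up to 12 bases, and 2.54% and 1.21% at 13 to 30 bases. At 31 to 100 bases the order turned, with 1.26% and 2.30% in light and 1.20% and 2.69% in dark. Over 100 bases the medians were 3.85% and 3.12% in light. The 4-base bins had a median usage of 0.0132% ± 0.0130 in light and 0.0197% ± 0.0175 in dark (227 bins).

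The share of donor reads that fell on the longer donor gave a second view that does not depend on width, over bins with both donors read and at least 10 donor reads in every library. In frame-keeping bins the median share was 45.5%, 43.5% and 36.4% in light libraries A, B and C, against 47.6%, 50.0% and 50.0% in dark libraries A, B and C (83 bins). The 3 light medians lay below the 3 dark ones, with means of 41.8% ± 4.78 in light and 49.2% ± 1.37 in dark. In frame-shifting bins the medians were 18.5%, 21.6% and 18.2% in light and 20.8%, 16.2% and 17.6% in dark, and the groups overlapped (141 bins). These medians are descriptions over bins and carry no test. They also moved with the depth asked for: with at least 30 donor reads the frame-keeping medians were 41.3% in light and 46.3% in dark, and the frame-shifting ones 3.94% in light and 2.79% in dark. Bin by bin, the frame classes were close. The median log2 change in the odds of the longer donor was −0.146 over 99 testable frame-keeping pairs (43 higher, 56 lower). Over 149 frame-shifting pairs it was −0.135 (67 higher, 82 lower). Over all 919 testable pairs of alternative 5′ and 3′ splice sites the median was −0.0335 (444 higher, 475 lower). By width, the 4-base bins had median shares of 11.3% ± 2.59 in light and 9.04% ± 3.05 in dark (38 bins), and the 6-base bins 83.9% ± 7.28 in light and 89.2% ± 3.98 in dark (10 bins).

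The first comparison asks which bins changed their usage after the light pulse. Few did. Counts were high enough to test 483 of the 1456 bins, and 5 passed an adjusted p of 0.05 in edgeR's quasi-likelihood test with Benjamini-Hochberg adjustment over all 3348 testable bins of the splicing table. Of these 5, 3 were higher and 2 lower in light. Over all alternatively spliced bins 1.19% were called (0.538% higher, 0.657% lower), and for these bins the share was 1.04%, close to that background. At an unadjusted p under 0.05 there were 39 of the 483, against 9.05% of all bins. The light and dark libraries did not overlap at 69 of the 483 bins, where 14.8% of all tested bins did not overlap. The median log2 change was 0.0007 over the 483 bins and −0.0036 over all bins, and the median size of the change, whatever its sign, was 0.13 for these bins and 0.14 for all. For 400 of the 483 bins (82.8%) the 95% confidence interval of the change lay within 2-fold in either direction, so a larger change was outside what the data allow for most tested bins. The other 973 bins had too few reads to say. The 5 called bins were all frame-shifting, with widths of 4, 4, 5, 112 and 119 bases. Of the 483 tested bins, 235 were frame-shifting, and 5 calls are too few to tell the frame classes apart. Without light library A and dark library C, those rich in ribosomal RNA, 2 bins were called, and leaving out any single library left 2 or 3. DESeq2 called 1 bin, that of SAG21.

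The clearest rise was in SAG21 (AT4G02380), a small late embryogenesis abundant-like protein induced in senescence and oxidative stress, at a 4-base bin on chromosome 4 (TAIR10, 1046730 to 1046733; the junctions place the intron towards lower coordinates). Bin counts were 6, 6 and 7 in light libraries A, B and C, against 32, 32 and 38 in dark libraries A, B and C. Gene counts were 601, 799 and 624 in light and 42324, 45343 and 29552 in dark, so both counts were lower in every light library and the gene fell far more than the bin. Usage was therefore 0.957% ± 0.189 in light and 0.0916% ± 0.0321 in dark (SD, n = 3 each), a log2 change of 3.41 ± 0.48 (SE, adjusted p = 0.000319, edgeR), without overlap between the groups. The part of the intron next to the bin moved alongside, at 1.67% ± 0.416 of the gene count in light and 0.143% ± 0.0370 in dark. The donor itself was read little: the longer donor had 1 of 355 donor reads in light (0.282%, 95% Clopper-Pearson interval 0.00713% to 1.56%) and 8 of 20087 in dark (0.0398%, 0.0172% to 0.0785%), intervals that overlap and cover counting error only. The gene's own level fell by 5.57 ± 0.17 on the log2 scale (adjusted p = 1.08e-12, edgeR).

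FBA2 (AT4G38970), a plastid fructose-bisphosphate aldolase of the Calvin cycle, also held a 4-base bin that rose (chromosome 4, 18164127 to 18164130). Bin counts were 35, 37 and 27 in light against 8, 9 and 8 in dark, with every light library above every dark one. Usage was 0.0974% ± 0.00294 in light and 0.0339% ± 0.00464 in dark (SD, n = 3 each; log2 change 1.52 ± 0.26 SE, adjusted p = 0.00228, edgeR), and the gene itself rose by 0.74 on the log2 scale. The longer donor had 0 of 8635 donor reads in light, which allows a share of up to 0.0347%, and 0 of 6271 in dark, which allows up to 0.0478%. The intron part beside the bin had 65, 83 and 52 counts in light and 13, 19 and 25 in dark. Reads over this bin thus came with reads over the intron and with no junction from the annotated longer donor. Without the rRNA-rich libraries its adjusted p was 0.0594.

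The third bin that rose lay in CA2 (AT5G14740), a beta carbonic anhydrase, which interconverts carbon dioxide and bicarbonate (chromosome 5, 4759214 to 4759218, 5 bases). Its counts were 18, 28 and 19 in light and 7, 13 and 12 in dark, again apart. Usage was 0.0984% ± 0.0195 in light and 0.0374% ± 0.0113 in dark (SD, n = 3 each; log2 change 1.36 ± 0.29 SE, adjusted p = 0.0134, edgeR). The longer donor was read 7, 4 and 3 times in light and 6, 5 and 3 times in dark, beside 1359 to 2516 reads of the shorter donor per library, and its share gave no call (log2 odds change 0.43, 95% interval −1.86 to 2.72). Counts over the adjoining intron part were 119, 150 and 102 in light and 61, 57 and 80 in dark. Gene level was not called (log2 change −0.09). The adjusted p for this bin was between 0.0506 and 0.125 without dark library A, B or C or without light library B or C.

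Usage fell in 2 longer bins. In AT5G16980 a 119-base bin (chromosome 5, 5580659 to 5580777) had 9, 11 and 17 counts in light and 32, 36 and 35 in dark. Usage was 5.16% ± 2.52 in light and 11.7% ± 1.51 in dark (SD, n = 3 each), with all light values below all dark ones, and the log2 change was −1.23 ± 0.27 (SE, adjusted p = 0.0208, edgeR). Intron counts beside it were 9, 11 and 8 in light and 31, 26 and 23 in dark, and the longer donor had a single read in the 6 libraries. The call was lost without any of light libraries A and B and dark libraries B and C (adjusted p of 0.0738 to 0.194). In AT1G67280 a 112-base bin (chromosome 1, 25190433 to 25190544) had 208, 215 and 170 counts in light and 338, 288 and 340 in dark. Usage was 11.3% ± 0.388 in light and 13.8% ± 0.648 in dark (SD, n = 3 each; log2 change −0.30 ± 0.07 SE, adjusted p = 0.0429, edgeR). Its intron had at most 1 count in any library, and all donor reads, 85, 94 and 69 in light and 138, 126 and 143 in dark, left from the longer donor. This call was lost under leaving out any library, with adjusted p-values of 0.0656 to 0.194.

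**Figure D2:**
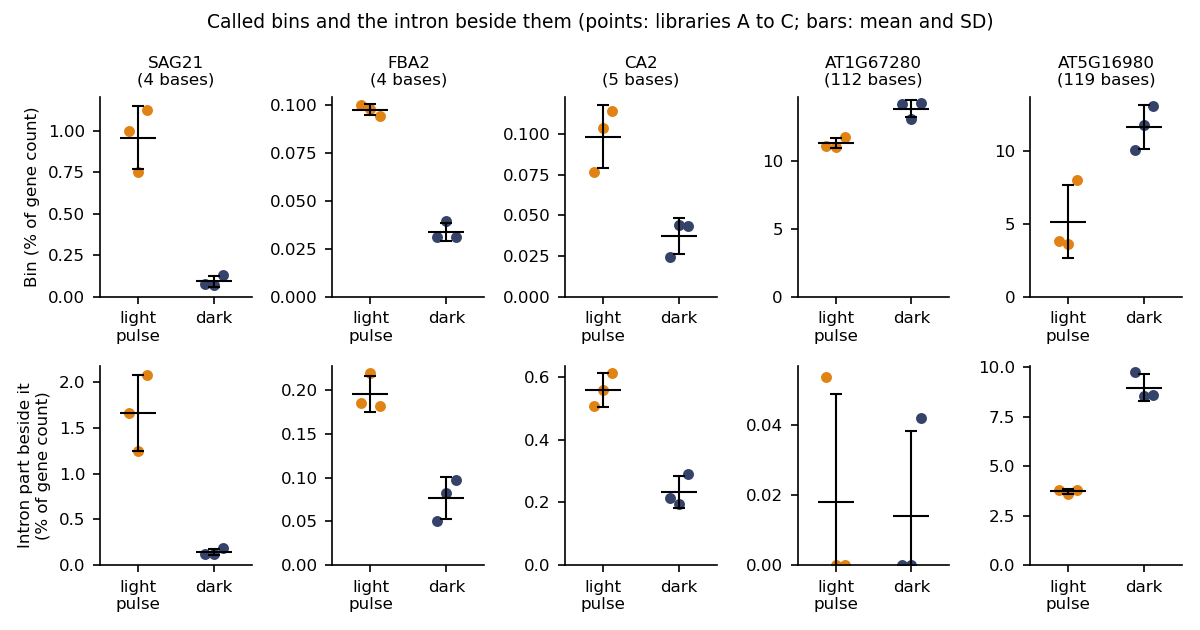
Usage of the 5 called bins (top, bin count in percent of gene count) and counts over the intron part beside each bin (bottom, in percent of gene count), for light pulse and dark libraries; points are libraries A, B and C, and bars give the mean and SD. In SAG21, FBA2, CA2 and AT5G16980 the bin and the intron differ in the same direction with no overlap of libraries, whereas the intron of AT1G67280 stays at or near 0.

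Over more bins the link between bin and intron was uneven. Among 141 tested bins whose adjoining intron part had at least 20 counts, the change in usage and the change of the intron relative to its gene had the same sign in 71. Pearson's r across these bins was 0.40 and Spearman's rho 0.16. Called bins are included, with SAG21 far out at 3.58 for the intron and 3.41 for usage, and such points weigh more in r than in rho. Bins are not independent replicates, and bin and intron share the gene count as denominator as well as reads across their border, so the values are a description. Where the shorter donor alone was read, r was 0.65 and rho 0.60 over 11 bins, and 8 of 11 had the same sign. The called bin of FBA2 is among these 11. Where the longer donor alone was read, r was 0.08 over 50 bins and 23 of 50 had the same sign.

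**Figure D3:**
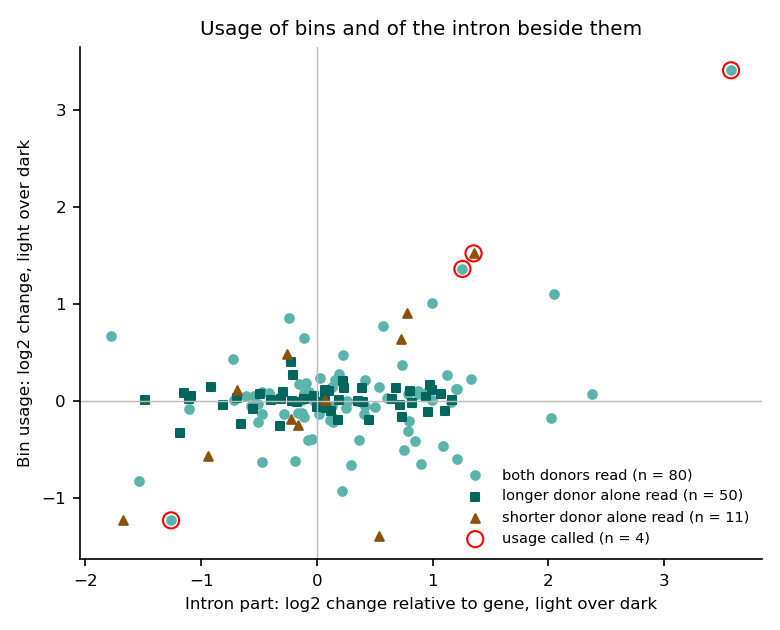
Log2 change in usage of each bin (vertical, light over dark) against the log2 change of the intron part beside it relative to its gene (horizontal), for 141 bins coloured by the donors read. The 4 circled called bins lie along the diagonal, and bins with the longer donor alone (squares) stay near 0 on the vertical axis across the whole horizontal range.

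The second comparison asks whether light moved the choice between the donors themselves, from the junction reads alone. No pair of donors was called among 248 that could be tested (edgeR's quasi-likelihood test of the donor by light term, adjusted over 919 pairs of alternative 5′ and 3′ splice sites). Over those 919 pairs 0.218% were called. At an unadjusted p under 0.05 there were 11 of the 248 (4.44%, against 6.64% of all pairs) in edgeR, while limma on the log2 ratio of the donors gave 0 calls and 24 unadjusted. The 6.64% belongs to edgeR, and the share over all pairs in limma is not given here, so the 24 cannot be set against a background. These tests were weak: for 9 of the 248 pairs the 95% interval of the change in odds lay within 2-fold. For the rest, a change of 2-fold or more was not excluded.

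The better-read pairs were taken next, as a description. At 148 bins with at least 20 donor reads in every library, the share of the longer donor differed by −20.7 to 19.9 percentage points (light minus dark) and 21 bins moved by more than 5 points. How far a bin moved went with how balanced its donors were. Part of this is built in, because the counting error of a share is largest where the donors are balanced. How many of the moves exceed counting error was not tested. The longer donor took under 10% in both groups at 60 bins and over 90% in both at 39, where there is little room to move, and 1 of these 99 moved by more than 5 points. Of the 37 bins that lay between 10% and 90% in both groups, 14 moved by more than 5 points, with a median size of 4.15 points in either direction, and libraries were apart at 6. The remaining 12 bins crossed or straddled these limits, and 6 of them moved by more than 5 points. Of the bins that moved by more than 5 points, 9 were frame-keeping and 12 frame-shifting, out of 57 and 91. Light and dark libraries did not overlap at 12 of the 148 (8.11%), below the 11.7% of all alternative 5′ and 3′ pairs read as deeply, with 3 higher and 9 lower in light.

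**Figure D4:**
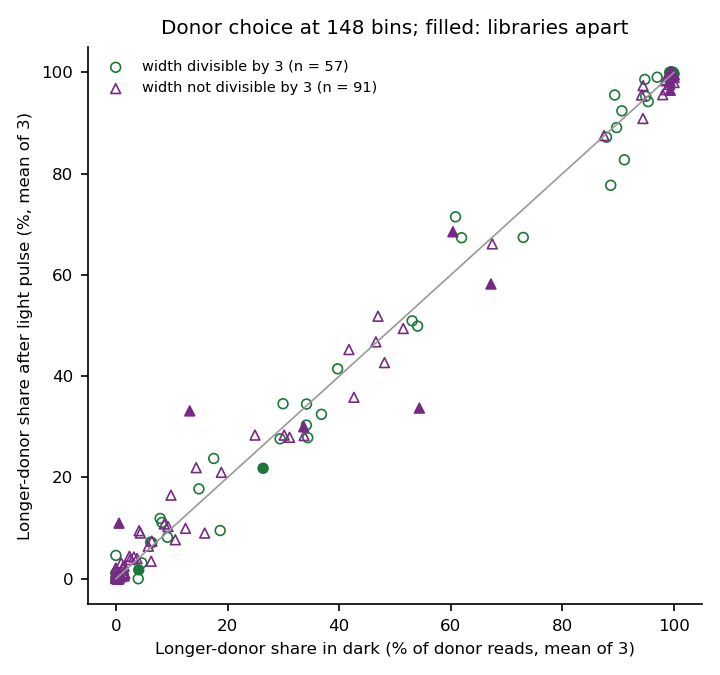
Mean share of donor reads on the longer donor after the light pulse (vertical) against darkness (horizontal), for 148 bins with at least 20 donor reads in every library; circles are frame-keeping and triangles frame-shifting bins, filled where light and dark libraries do not overlap. Points gather in the corners near 0% and 100% and along the line of equal shares.

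At 3 bins the longer donor took a larger share in light in every library, none of them called. In AT1G52100 (247 bases) the shares were 31.03%, 30.3% and 38.1% in light and 12.0%, 7.69% and 20.0% in dark, on 21 to 45 donor reads per library, with an unadjusted p of 0.0287 and an adjusted p of 0.73 in edgeR. In AT2G32060 (56 bases) they were 18.4%, 5.17% and 9.38% in light and 0%, 0% and 1.67% in dark. This rests on 15 reads of the longer donor in light and 1 in dark (edgeR, unadjusted p = 0.00726, adjusted p = 0.556). In AT1G26850 (64 bases) they were 72.9%, 64.9% and 67.6% in light and 58.2%, 64.5% and 58.5% in dark, so the lowest light value and the highest dark value nearly touched (edgeR, adjusted p = 0.73).

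The widest fall was in AT2G04690 (35 bases, chromosome 2, 1646032 to 1646066). Its longer donor took 37.1%, 34.8% and 29.2% of donor reads in light, against 51.5%, 56.5% and 55.1% in dark, a gap of 20.7 points with no overlap. In edgeR the log2 change in odds was −1.20 (95% interval −2.04 to −0.35, unadjusted p = 0.00897, adjusted p = 0.589). The gene itself fell by 1.07 on the log2 scale. In EMB3114, a gene named for an embryo-defective mutant, the longer donor of a 104-base bin took 59.2%, 56.7% and 58.7% in light and 67.4%, 62.0% and 72.2% in dark (edgeR, adjusted p = 0.73).

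A pair of related genes for ubiquitin E2 enzyme variants, which work with UBC13 to build lysine-linked ubiquitin chains, each held a 3-base bin with both donors in use. UEV1D-4 gave 25.0%, 23.1% and 17.3% on its longer donor in light and 25.3%, 27.0% and 26.8% in dark, which left libraries apart by a narrow margin. MMZ3 gave 28.6%, 29.1% and 33.3% in light and 32.5%, 35.6% and 34.2% in dark, and here the groups overlapped. In edgeR their adjusted p-values for donor choice were 0.867 for UEV1D-4 and 0.903 for MMZ3. Another 3-base bin, in PUR ALPHA-1, a purine-rich DNA binding protein, gave 23.2%, 31.1% and 28.6% in light and 26.4%, 30.8% and 31.1% in dark. The 3 genes differed in level (log2 changes of −0.19 for UEV1D-4, −0.66 for MMZ3 and −0.66 for PUR ALPHA-1) while their donor shares lay within a few points.

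HHL1 (AT1G67700), named for hypersensitivity to high light, held 2 bins. At its 14-base bin both donors were read about equally, and the longer took 43.6%, 51.0% and 45.7% in light and 46.4%, 48.1% and 45.2% in dark. This is the most deeply read balanced pair of the set, and its groups overlapped. At its 3-base bin the longer donor dominated, at 98.3% ± 0.606 in light and 99.3% ± 0.253 in dark, apart by less than 1 point (SD, n = 3 each). UBC8, a ubiquitin-conjugating enzyme, had a 6-base bin with the longer donor at 98.9% ± 0.394 in light and 99.7% ± 0.263 in dark, and MST2, a mercaptopyruvate sulfurtransferase, a 10-base bin at 96.5% ± 0.738 in light and 99.3% ± 1.20 in dark. Each of these gaps is made by 0 to 8 reads of the shorter donor per library. The remaining falls named by the same rule were in AT1G67480 (118 bases, 30.02% ± 2.62 in light and 33.7% ± 1.07 in dark) and AT1G80380 (57 bases, 1.76% ± 0.905 in light and 4.09% ± 1.79 in dark).

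**Figure D5:**
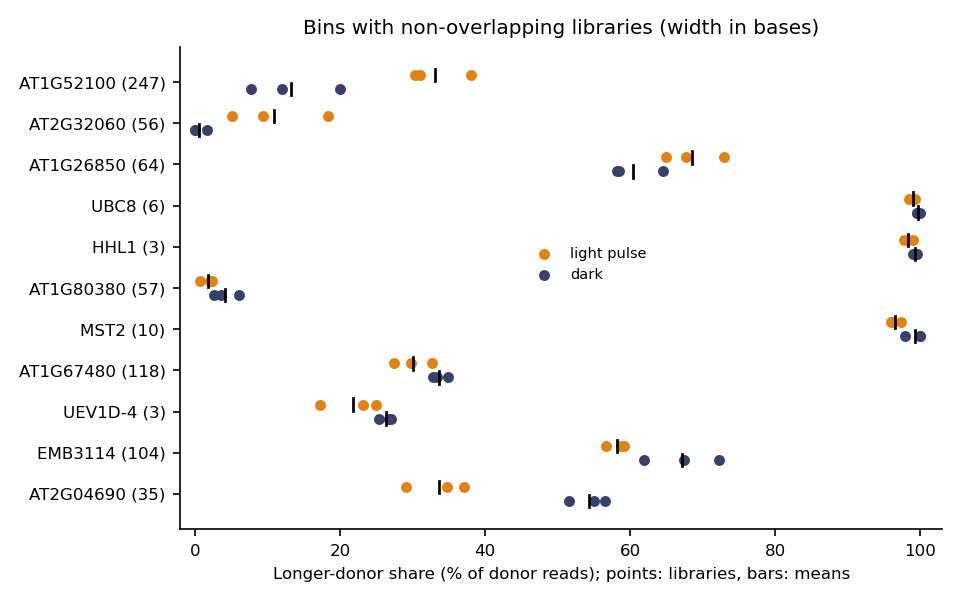
Share of donor reads on the longer donor in each light pulse and dark library, for the 11 named bins whose libraries do not overlap; widths in bases are given in brackets and short bars mark means. Gaps are wide in AT2G04690 and AT1G52100 and under 1 point in HHL1 and UBC8.

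Splicing regulators held few of the bins themselves. Of theirs, 7 were tested for usage and 0 were called, where 1.19% of all tested bins were called, so a count of 0 says nothing particular about them. The SR proteins, which bind exons and recruit the spliceosome, held 6 bins in 20 genes, of which 3 were tested. RSZ21 (12 bases) had a usage of 10.5% ± 0.695 in light and 11.6% ± 2.68 in dark, RS41 (92 bases) 16.5% ± 1.33 in light and 16.2% ± 1.02 in dark, and RS31a (556 bases) 20.6% ± 4.30 in light and 27.1% ± 1.21 in dark (SD, n = 3 each). The log2 change for RS31a was −0.39 (95% interval −0.86 to 0.08, adjusted p = 0.698, edgeR) on 14 to 33 counts per library, and its gene overlaps another, so the counts may be shared. The intron beside the RS41 bin stood at 1.92% ± 0.459 of the gene count in light and 4.24% ± 1.16 in dark, with all light values below all dark ones, beside a bin whose usage overlapped between the groups.

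Factors of 3′ splice site recognition also held bins upstream of their own introns. U2AF35A, the small U2AF subunit that binds the AG of the acceptor, had a usage of 8.71% ± 1.54 in light and 9.49% ± 1.42 in dark at a 153-base bin in a gene that overlaps another. U2AF65A, which binds the polypyrimidine tract, gave 7.51% ± 1.78 in light and 8.58% ± 0.957 in dark at 49 bases. PTB1, a polypyrimidine tract binding repressor, gave 8.70% ± 0.767 in light and 7.95% ± 0.906 in dark at 24 bases. AFC3, a LAMMER-type kinase of SR proteins, had donor reads enough for the donor test, but 3 reads of the longer donor, all in dark library C. FIO1, the methyltransferase that modifies U6 RNA where it meets the 5′ splice site, held a 44-base bin with 5, 6 and 8 counts in light and 11, 16 and 11 in dark, and a usage of 9.31% ± 3.51 in light and 9.24% ± 1.99 in dark. The longer donor was read alone in FIO1, PTB1, RS41 and both U2AF genes. For these 7 usage tests the adjusted p-values (edgeR) were 0.698 to 0.996.

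Among genes of light signalling, PHOT2, the blue light receptor that moves chloroplasts away from strong light, had 2 measurable bins, in a gene that overlaps another. At its 4-base bin the longer donor took 17.3%, 21.6% and 26.9% in light and 13.2%, 25.0% and 5.0% in dark, and the groups overlapped. At its 5-base bin usage was 5.30% ± 0.0319 in light and 4.99% ± 0.347 in dark, with the longer donor at 98.2% ± 1.17 in light and 99.3% ± 1.26 in dark. The PHOT2 gene rose by 0.91 ± 0.07 on the log2 scale (SE, adjusted p = 1.30e-08, edgeR). The clock genes held 3 bins in 27 genes and the nonsense-mediated decay genes 1 in 4, all too thinly read to test.

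Photosynthesis and carbon fixation genes held 7 bins in 13 genes, with 4 tested, among them the called bins of FBA2 and CA2. Over all tested bins 1.19% were called. The list was chosen with earlier results of these data known, so its calls say nothing about such genes as a class. RBCS1A, a Rubisco small subunit, gave the most deeply read bin of the set, 7 bases wide, with 21509, 24796 and 17348 counts in light and 24258, 22681 and 24896 in dark. Its usage was 15.9% ± 0.764 in light and 15.6% ± 0.481 in dark, a log2 change of 0.03 with a 95% interval of −0.04 to 0.09, and all junction reads left from the longer donor. A second CA2 bin, of 4 bases, had 33, 24 and 16 counts in light and 214, 20 and 11 in dark. Dark library A alone sets its log2 change of −1.39 (adjusted p = 0.547, edgeR); without that library the change is 0.99 (adjusted p = 0.177), and with all libraries and no filter on low counts the fall is called (adjusted p = 1.2e-10).

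The genes that hold the bins were called for level far more often than the bins were called for usage. A bin holds only part of its gene's reads, so the usage test had less power. These rates of calls therefore do not compare how much genes and bins changed. Expression could be tested in 1238 of the 1342 host genes, and 764 of them (61.7%) were called, 379 higher and 385 lower in light. Over all genes 56.3% were called, 28.9% higher and 27.4% lower. Scaling by library totals in place of TMM moved the median change of all genes to −0.15 on the log2 scale. It turned the split of the 1238 hosts to 249 higher and 520 lower, and that of all 20151 genes tested to 4182 higher and 7397 lower. The balance of directions thus depends on the scaling, for the hosts as for all genes. Of the 468 hosts of tested bins, 312 (66.7%) were called.

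Of the 17 genes on the list of factors that act at the 5′ splice site, 2 were higher and 4 lower (35.3% called, where 56.3% of all genes were). SKIP, a component of the activated spliceosome that also affects clock gene splicing, had 93.6, 87.1 and 87.2 CPM in light and 152, 156 and 150 in dark (log2 change −0.77 ± 0.06 SE). RBM25, a U1-associated protein, averaged 97.8 ± 5.17 in light and 123 ± 4.95 in dark, and FIO1 6.87 ± 0.649 in light and 11.0 ± 0.684 in dark (CPM, SD, n = 3 each). All 3 fell under TMM, DESeq2 scaling and library totals. BRR2A, the helicase that unwinds U4 from U6, averaged 235 ± 11.1 in light and 198 ± 15.5 in dark and rose under TMM and DESeq2 (log2 change 0.24), but was not called with library totals (0.10, adjusted p = 0.197, edgeR). With library totals the list had 0 higher and 7 lower of 17, where 4182 of all 20151 genes tested were higher and 7397 lower. In nonsense-mediated decay, UPF3 fell (log2 change −0.22, adjusted p = 0.00676, edgeR), as it did with DESeq2 scaling and library totals. UPF1 and UPF2 were not called, with log2 changes of 0.12 and 0.07.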

How the data were processed

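RNA-seq libraries of 3 light pulse and 3 dark control samples were analysed. The submitters' processing notes name TopHat2 2.0.9, R 3.1 and the TAIR10 genome build. The authors deposited raw counts, per library, of reads on genes, alternatively spliced bins, introns and junctions. Which program counted the reads, whether strand was used and what was filtered is not stated in the labels or tables. The column letters A, B and C match no replicate number, so columns were assigned to groups alone.

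The donor side of each bin was inferred from junctions: the longer donor is where junctions leave the bin's intron-side border, and the shorter where they leave the base before the bin. In 602 genes with 2 or more oriented bins, 0 had opposite orientations. No deposited column marks strand or coding sequence.

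Usage was tested with edgeR 4.0.16 (R 4.3.3), by quasi-likelihood on bin counts with log(gene count + 0.5) as offset, over all bins passing filterByExpr. Donor choice was tested on longer and shorter donor counts with library terms, over pairs with at least 10 donor reads in 3 libraries and 3 reads of the rarer donor in all. Genes were tested with TMM normalization. Adjusted p-values are Benjamini-Hochberg over each whole table, called under 0.05; SE is the log2 change divided by the root of F. The fits were tested on simulated data. DESeq2 1.42.0, limma 3.58.1 with a pseudocount of 0.5, other filters, offsets and scalings and leaving out libraries were tried as alternatives. Intervals and the limits for a count of 0 (3 counts) cover counting error only.

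Named bins are the called ones, up to 8 rises and 8 falls of longer-donor share among pairs with 20 reads in every library and no overlap, the 6 most read pairs between 10% and 90%, and tested bins in the gene lists. Members and lists were chosen with earlier results of these data known. Gene symbols are from the deposited table or RefSeq, where all 1342 loci matched.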

Additional observations from a re-analysis of the deposited data

How the results depend on the processing

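Of the 5 bins called for usage, SAG21 kept its call and direction under every alternative run. The count was 1 with DESeq2 (14 at an unadjusted p under 0.05), 5 with the bin's reads taken out of the gene count, 7 without the low-count filter, 2 without the rRNA-rich library of each group, and 2 to 3 when 1 library was left out. The shares over all bins in these runs are not given here, so the counts describe the stability of the calls alone. FBA2 was not called by DESeq2 (adjusted p = 0.0697) or without the rRNA-rich libraries (0.0594), CA2 and AT5G16980 not by DESeq2 (0.178 and 0.191), and AT1G67280 was called in the first fit and without the filter alone. Donor pairs gave 0 calls under each alternative. With at least 30 donor reads or 100 gene counts, the median longer-donor share was 46.3% in dark for frame-keeping bins, and 3.94% in light and 2.79% in dark for frame-shifting bins, whose median usage in dark was 0.489%.

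Signs turned for changes that were not called: without the rRNA-rich libraries, U2AF35A (log2 change 0.078), PTB1 (−0.040) and RS41 (−0.0050). When 1 library was left out, log2 changes ranged over −0.11 to 0.10 for the 14-base HHL1 bin's odds, −0.29 to 0.030 for PUR ALPHA-1's odds, −0.25 to 0.016 for U2AF35A, −0.35 to 0.16 for FIO1, −0.031 to 0.080 for RS41, −0.26 to 0.048 for RSZ21 and −1.89 to 0.99 for the 4-base CA2 bin. The last was called without the low-count filter (adjusted p = 1.2e-10). The cause was not tested. Host gene calls stayed within 1.5 times of 764.

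Deviations of libraries sharing a letter correlated at −0.07, 0.12 and −0.04 for A, B and C, so the letters were not taken as pairs. Light A correlated best with dark C (0.13), the other rRNA-rich library, and light C with dark A (0.10), which a block by letter does not cover. With the letter as a replicate block, 4 bins, 0 pairs and 780 host genes were called, against 5, 0 and 764 in the first fit. Low counts in the bins limit what can be said, since 973 of 1456 bins had too few reads for the usage test. Their genes were mostly well read: 1206 of the 1456 bins lay in genes with at least 50 counts in every library.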

Other observations

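Bins chosen after their values were seen, with at least 20 donor reads in every library, moved by over 8 points with overlapping libraries. The longer-donor share averaged 71.5% in light and 60.8% in dark at a 12-base bin of AT1G53800, 77.7% in light and 88.7% in dark at a 6-base bin of AT1G59750, 9.52% in light and 18.7% in dark at a 42-base bin of AT3G28130, and 82.7% in light and 91.1% in dark at a 39-base bin of AT4G24440. The ninth bin that was lower in light without overlap, a 3-base bin of AT1G01100, differed by 0.257 points.

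Beside the RBCS1A bin, the intron part had 605, 668 and 417 counts in light and 629, 112 and 496 in dark, so dark library B stood far below the other libraries while the bin's usage there was 16.0%, within the range of the rest. Beside the 14-base HHL1 bin, the intron part had 47, 9 and 10 counts in light and 3, 8 and 6 in dark, and light library A carried most of that difference.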
